A study of Mus musculus with 96 samples.

Results

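The collecting duct of the renal cortex (CCD) was compared with its continuation in the outer medulla (OMCD). The 14 CCD and OMCD samples were taken by their labels, 7 of each segment, from 93 microdissected samples of glomeruli and renal tubule. All came from male C57BL/6 mice 6 to 8 weeks old with no genetic change or treatment named. RNA of dissected pieces was sequenced by a very low input method, and the deposited values are TPM, a transcript abundance. TPM correct for transcript length and sum to the same total in every sample. The pieces of 1 mouse number and segment were averaged, which left 5 CCD mice and 4 OMCD mice. Each TPM per mouse below is the plain mean of its pieces, and group values are means ± SD over mice. The log2 differences rest on pieces averaged as log2(TPM + 1), so they can depart from the logs of the printed TPM.

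The collecting duct holds principal cells, which take up sodium and water, and intercalated cells, which move acid and base. Type A intercalated cells secrete protons with a proton pump on the luminal side and the anion exchanger Slc4a1 on the blood side. Type B intercalated cells secrete bicarbonate in exchange for chloride through pendrin, the product of Slc26a4. Vasopressin acts on principal cells to place aquaporins in their membranes, and aldosterone acts on their epithelial sodium channel, ENaC. The outer medulla is saltier and poorer in oxygen than the cortex. In pieces of tubule, fewer cells of a type and less RNA per cell cannot be told apart.

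The labels were checked against 2 defining genes. Slc26a4 was above 1000 TPM in 5 of 5 CCD mice and under 10 TPM in 4 of 4 OMCD mice. Aqp6, a water channel of type A intercalated cells, was 130 to 157 TPM in CCD and 563 to 748 TPM in OMCD. Across genes, which are not independent replicates, the median Pearson's r of log2(TPM + 1) was 0.991 between CCD mice, 0.975 between OMCD mice and 0.954 between the segments. OMCD carried more genes at a low level. A TPM of 1 or more was reached by 13375 to 13813 genes in CCD and by 17213 to 20867 in OMCD (exact permutation test, two-sided, p = 0.0159, the smallest that 5 against 4 mice can give). Odorant and vomeronasal receptor genes serve smell and reached that level for 1 gene in each CCD mouse. In OMCD mice 1 to 4 they did so for 195, 69, 95 and 59 genes (exact permutation p = 0.0159). For this reason a gene was called only if its mean was 10 TPM or more in the higher segment, beside an adjusted p under 0.05 by limma and a difference of at least 1 on the log2(TPM + 1) scale. No receptor gene was called under this rule (0 of 855 tested), against 52, all higher in OMCD, without the minimum. Without it, 10.4% of the 33793 genes tested were called higher in OMCD and 1.73% higher in CCD.

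Of 9714 genes with 10 TPM or more in either segment, 999 were called, a share of 10.3%. CCD was the higher segment for 360 of them, 3.71% of the genes, and OMCD for 639, 6.58%. The split depended on scaling: it was 478 against 466 after median ratio rescaling and 431 against 479 after quantile normalization, and among the calls at 50 TPM or more it was 175 against 170. In 941 of the 999 no CCD mouse overlapped an OMCD mouse, and this held for 9.69% of the genes as called and for 43.9% of the genes by lack of overlap alone. The genes higher in CCD were protein-coding in 344 of 360 cases (95.6%), those higher in OMCD in 484 of 639 (75.7%). Among the rest of the OMCD calls were 26 small nucleolar RNA genes and 19 microRNA genes, against 2 and 0 among the CCD calls. The shares of these gene types over all 9714 genes were not taken. Genes that reached 10 TPM in OMCD only could be called in favour of OMCD alone, so these counts describe the calls only. In brackets below, the first number after any TPM is the difference CCD minus OMCD in log2(TPM + 1) units, negative where OMCD was higher, and adjusted p are by limma. A difference of 3 log2 units or more was seen for 65 genes higher in CCD and 78 higher in OMCD.

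**Figure D1:**
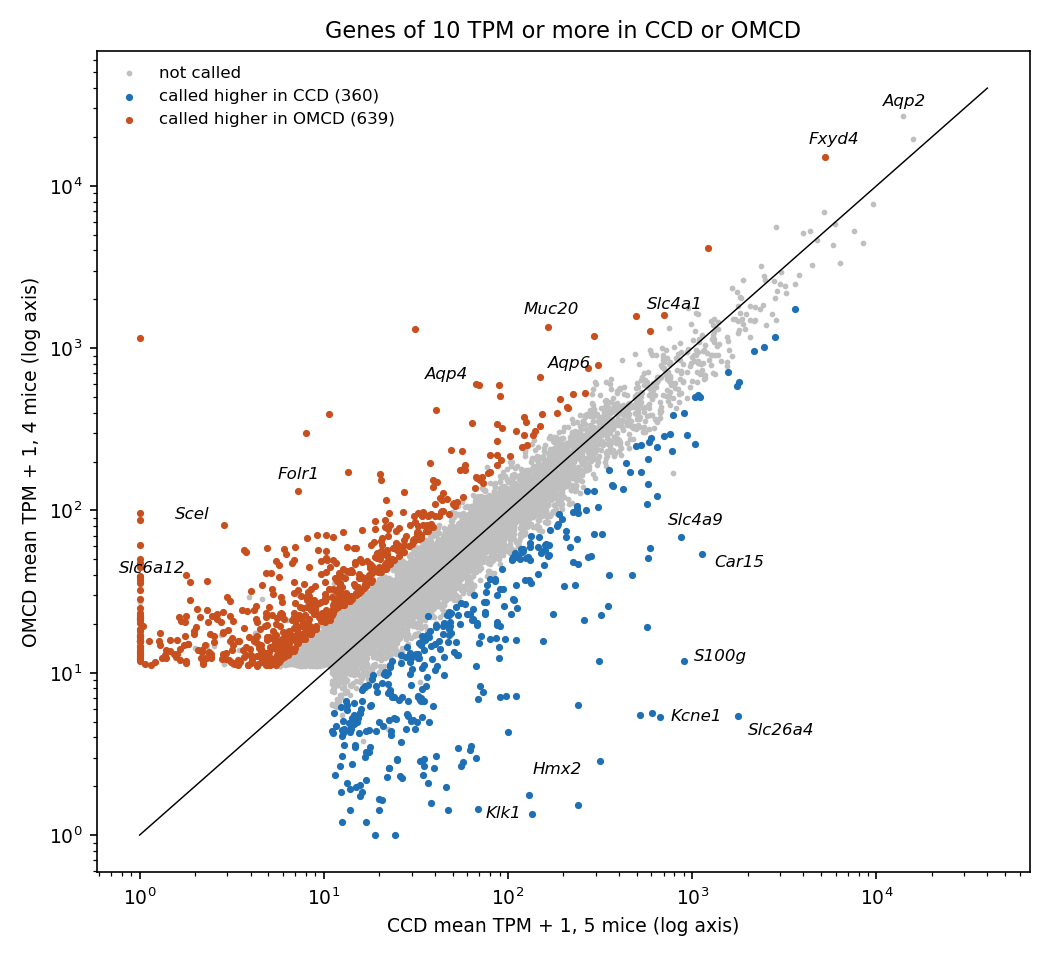
Mean TPM + 1 in CCD (horizontal, 5 mice) against OMCD (vertical, 4 mice), both on log axes, for the 9714 genes with a mean of 10 TPM or more in either segment. Blue points are the 360 genes called higher in CCD, orange points the 639 called higher in OMCD and grey points genes not called; Slc26a4, Kcne1 and Hmx2 lie far below the line of equal levels, and Scel, Folr1 and Muc20 far above it.

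The type B intercalated list had the highest median difference, 3.16, of the 20 lists of collecting duct cell types and pathways. Lists of markers of other cells are not among these 20, and some had higher medians (5.01 for distal and connecting tubule markers). Of its 5 genes, 4 were called higher in CCD. Slc26a4 stood at 1430, 1886, 1573, 1608 and 2350 TPM in CCD mice 1 to 5 and at 0.33, 9.69, 5.76 and 1.82 TPM in OMCD mice 1 to 4. Its difference of 8.92 log2 units (SE 0.31, adjusted p = 2.37e-26, limma) was the largest in favour of CCD among all called genes. Slc4a9, the anion exchanger on the blood side of type B cells, was 733, 1000, 730, 831 and 1032 TPM in CCD and 82.2, 38.4, 80.0 and 69.3 TPM in OMCD (3.70, SE 0.20, adjusted p = 2.62e-19). In each OMCD mouse Slc4a9 was above Slc26a4, and in each CCD mouse it was below. Insrr, a receptor that senses alkali, was 312 to 422 TPM in CCD and 34.5 to 48.1 TPM in OMCD (3.16, SE 0.19). Oxgr1, the receptor for 2-oxoglutarate, was 178 to 231 TPM in CCD and 39.7 to 100 TPM in OMCD (1.66, SE 0.18). Slc4a8, a sodium-driven chloride and bicarbonate exchanger, went the other way, at 20.4 ± 1.40 TPM in CCD and 38.0 ± 2.59 TPM in OMCD. It did not pass the test (−0.86, SE 0.34, adjusted p = 0.0546), although its mice did not overlap.

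The type A list pointed to OMCD, with 4 of 7 genes called higher there and 1 higher in CCD. Aqp6 was 130, 148, 156, 146 and 157 TPM in CCD mice and 634, 563, 719 and 748 TPM in OMCD mice (−2.16, SE 0.12, adjusted p = 3.36e-19). Slc4a1 was 497, 445, 520, 458 and 558 TPM in CCD and 1388, 1334, 1836 and 1772 TPM in OMCD (−1.66, SE 0.15, adjusted p = 1.11e-11). Slc4a1 is also the anion exchanger of red blood cells, whose 5 other markers summed to at most 0.74 TPM in any mouse of either segment. Slc26a7, a chloride and bicarbonate exchanger of the blood side, was 5.65 to 10.9 TPM in CCD and 25.2, 56.4, 99.3 and 98.4 TPM in OMCD (−2.80, SE 0.26). All these groups were separate, and OMCD mouse 1 was the lowest of its group for Slc26a7. Adgrf5, an adhesion receptor of intercalated cells, was 141 to 216 TPM in CCD and 325 to 518 TPM in OMCD (−1.11, SE 0.36, adjusted p = 0.0183), a call that was lost without OMCD mouse 4 (−0.98, adjusted p = 0.06), with median ratio rescaling (−0.92, adjusted p = 0.0624), which left 3 calls in favour of OMCD, and with a pseudocount of 0.1 (adjusted p = 0.0527). Dmrt2, a transcription factor, was 89.5 ± 2.33 TPM in CCD and 148 ± 21.2 TPM in OMCD and passed the adjusted p but not the fold (−0.71, adjusted p = 0.00319). Kit, a receptor tyrosine kinase, overlapped between segments at 318 ± 46.0 and 257 ± 89.6 TPM (0.36, adjusted p = 0.403).

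Hmx2, a homeobox transcription factor, had been listed with type A genes but moved with type B. Its level was 272, 376, 283, 250 and 384 TPM in CCD mice and 1.10, 3.61, 2.04 and 0.69 TPM in OMCD mice (6.88, SE 0.23, adjusted p = 1.62e-26). It overlaps Fgfr2 on the opposite strand, and Fgfr2 was 123 ± 16.7 TPM in CCD and 87.8 ± 19.6 TPM in OMCD. Hmx3, its neighbour in the same gene family, was 5.01 ± 0.79 TPM in CCD and 0.020 ± 0.023 TPM in OMCD and so lay under the minimum.

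**Figure D2:**
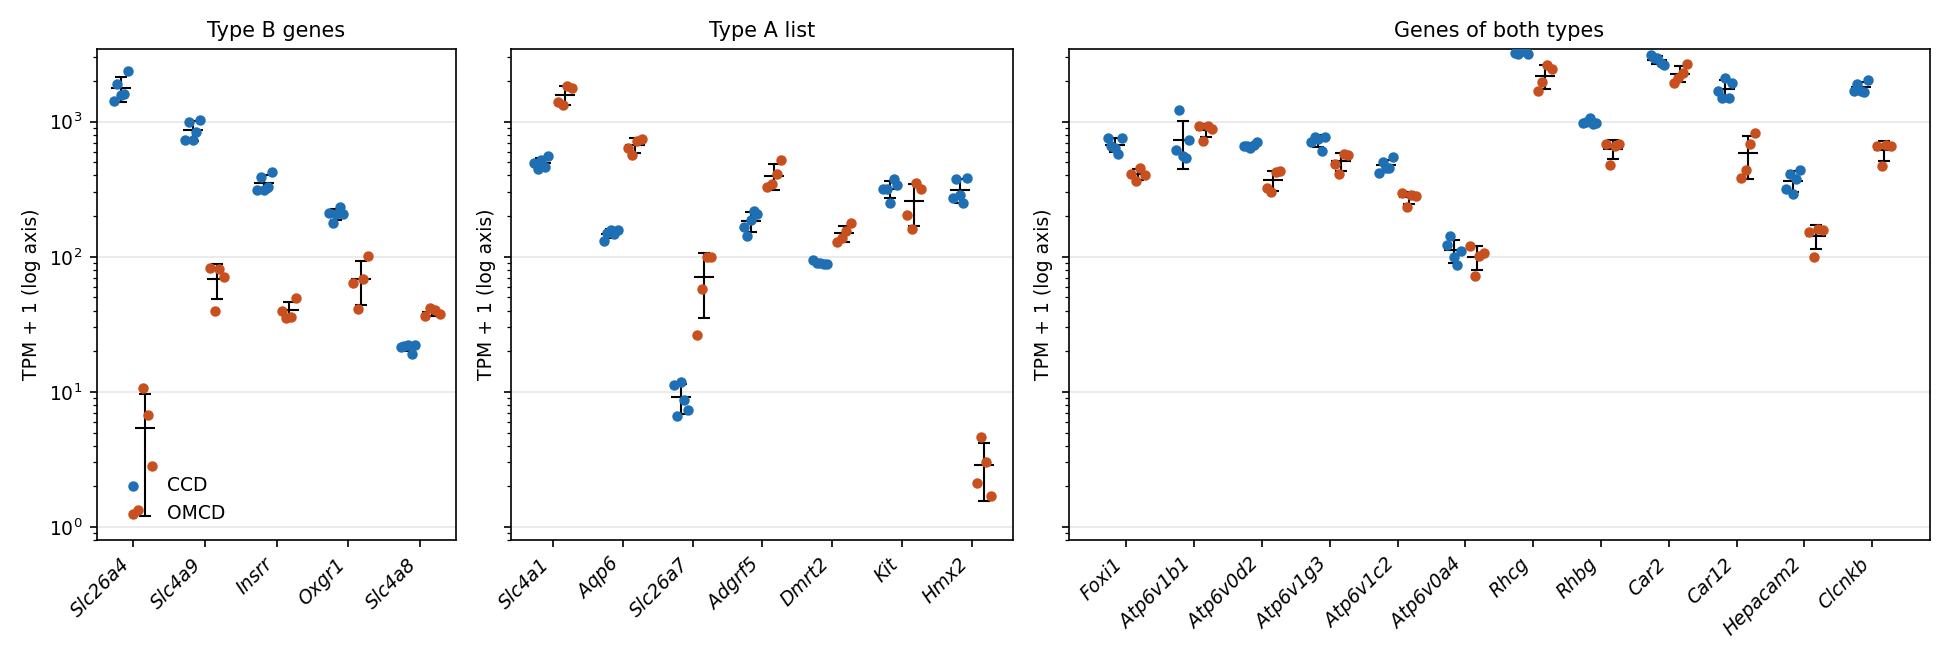
TPM + 1 on a log axis for each of 5 CCD mice (blue) and 4 OMCD mice (orange), with the mean and SD as black bars, for type B genes, the type A list and genes of both intercalated types. Slc26a4 and Hmx2 fall to a few TPM in OMCD, Aqp6 and Slc4a1 are higher there, and the genes of both types differ by less than Aqp6 does.

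Promoters are shown for Slc26a4 and Hmx2, which were high together in CCD, and for Aqp6, which was high in OMCD, to set their start regions side by side. Of 10 genes of these lists looked up, 5 had an entry. Each run gives the 250 bases before the annotated start, 5′ to 3′ on the gene's strand (RefSeq, GRCm38.p6). Capitals mark matches, on either strand, to 4 motifs: the TATA box TATAAA, the E-box CACGTG, the forkhead core TGTTTAC and the CP2-type pair of half-sites, CCNG followed after 6 bases by CCNG. Slc26a4 lies at chr12:31559985-31560234 on the minus strand, Hmx2 at chr7:131548507-131548756 on the plus strand and Aqp6 at chr15:99600950-99601199 on the plus strand.
Slc26a4: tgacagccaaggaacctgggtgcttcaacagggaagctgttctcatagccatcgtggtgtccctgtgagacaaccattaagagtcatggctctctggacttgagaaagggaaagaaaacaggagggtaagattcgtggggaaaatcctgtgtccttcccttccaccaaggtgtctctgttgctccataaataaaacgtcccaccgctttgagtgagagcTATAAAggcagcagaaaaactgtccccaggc
Hmx2: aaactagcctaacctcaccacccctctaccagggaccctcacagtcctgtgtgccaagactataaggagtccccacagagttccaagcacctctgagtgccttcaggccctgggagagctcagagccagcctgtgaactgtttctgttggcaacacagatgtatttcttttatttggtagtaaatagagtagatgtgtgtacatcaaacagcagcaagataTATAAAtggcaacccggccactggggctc
Aqp6: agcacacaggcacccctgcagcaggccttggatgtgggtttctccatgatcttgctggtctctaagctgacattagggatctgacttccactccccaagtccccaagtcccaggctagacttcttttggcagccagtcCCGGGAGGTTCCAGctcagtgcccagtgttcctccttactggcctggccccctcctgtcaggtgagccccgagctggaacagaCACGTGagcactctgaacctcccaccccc
The TATA box begins 31 bases before the start of Slc26a4 and 29 bases before this start of Hmx2, and it is absent from the Aqp6 window. A further listed start of Hmx2 lacks that match and holds the CP2-type pair at 2 places. Of the genes not shown, Oxgr1, higher in CCD, holds no motif searched, and Adgrf5, higher in OMCD, holds a CP2-type pair at 1 of its 2 starts and no TATA box. TATAAA is present in 12.4% of the 32851 promoter windows of this length, CACGTG in 6.02%, the CP2-type pair in 24.9% and TGTTTAC, which none of these windows holds, in 3.17%. These matches describe the letters only.

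Genes that both intercalated types use were called in favour of CCD where they were called at all. Of 12, 3 were called higher in CCD and none (0) higher in OMCD. By the adjusted p alone, whatever the fold, 8 of 12 passed in favour of CCD and none (0) in favour of OMCD, where 11.8% and 19.3% of all genes of 10 TPM or more did so. In all 11 of 12 had a positive difference, and their median difference was 0.70 log2 units, against −0.08 over all genes of 10 TPM or more. Foxi1, the transcription factor that intercalated cells need, was 750, 657, 642, 574 and 758 TPM in CCD and 412, 364, 453 and 399 TPM in OMCD. The CCD mice were all higher, by less than the fold required (0.73, SE 0.25, adjusted p = 0.0272). Rhcg, an ammonia channel, was 3238 TPM in CCD and 2182 TPM in OMCD on average (0.59, adjusted p = 0.000959), and Atp6v1b1, a proton pump subunit, overlapped (−0.31, adjusted p = 0.404). Called genes included Car12, a membrane-bound carbonic anhydrase (1.64), and Hepacam2, an adhesion protein (1.36). Set against Foxi1 in the same mouse, Aqp6 was 0.221 ± 0.0323 of its level in CCD and 1.64 ± 0.159 in OMCD. The corresponding ratio of Slc4a1 was 0.737 ± 0.0674 and 3.88 ± 0.464, and that of Slc26a4 was 2.63 ± 0.465 and 0.0112 ± 0.0115. Each of these ratios was separate between the segments.

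Genes of acid and base transport were called in both directions. Of 22 exchangers, chloride channels and related genes with 10 TPM or more, 5 were called higher in CCD and 5 higher in OMCD. Bsnd, barttin, a chloride channel subunit, was 183 to 285 TPM in CCD and 81.5 to 108 TPM in OMCD (1.31, adjusted p = 8.19e-07). Slc4a5, a sodium bicarbonate cotransporter, was 4.96 to 6.95 TPM in CCD and 22.4 to 42.7 TPM in OMCD (−2.36, adjusted p = 2.96e-09). Slc4a11, a transporter of protons and ammonia, was under 3 TPM in every CCD mouse and 10.0 to 12.4 TPM in OMCD (−2.51). Slc9a2, a sodium and proton exchanger, was just past the fold in favour of CCD (1.01, adjusted p = 0.0102), and it lost its call without CCD mouse 1, CCD mouse 5 (0.96) or OMCD mouse 2 (0.84) and with a pseudocount of 0.1 (adjusted p = 0.0614) or 5 (0.83).

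Carbonic anhydrases were likewise called in both directions. Car15, bound to the luminal membrane, was 1165, 805, 1205, 816 and 1626 TPM in CCD and 107, 48.9, 20.4 and 35.2 TPM in OMCD (4.63, SE 0.48, adjusted p = 4.26e-10). Car12 was 1751 ± 270.4 and 581 ± 206 TPM. The mitochondrial Car5b was 11.9 to 15.3 TPM in CCD and 52.8 to 64.6 TPM in OMCD (−1.97, SE 0.13). Car2, the abundant cytosolic form, overlapped at 2874 and 2256 TPM. Proton pump subunits moved by small amounts: of 22, only Atp6v1a (1.08) and Atp6ap2 (1.02) reached the fold, both higher in CCD, and 13 passed the adjusted p in that direction whatever their fold, against none (0) in the other. Of all genes of 10 TPM or more, 3.71% were called higher in CCD. By the adjusted p alone, 11.8% of them passed in favour of CCD and 19.3% in favour of OMCD. Atp6v1a lost its call without OMCD mouse 1 (0.94) and Atp6ap2 without OMCD mouse 2 (0.96) or 3 (0.99). With quantile normalization neither subunit was called, and with median ratio rescaling 4 were.

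Of 8 potassium channel and pump genes with 10 TPM or more, 4 were called higher in CCD and none (0) higher in OMCD. Of all genes of 10 TPM or more, 3.71% and 6.58% were. Kcne1, Kcnj10 and Atp12a reached 10 TPM in CCD only, so the count describes these genes. Kcnmb4, under 10 TPM in both segments, was higher in OMCD (0.44 against 6.89 TPM, −2.40, adjusted p = 6.84e-07). The median over all 17 tested members was −0.11. Kcne1, an accessory subunit of the Kcnq1 potassium channel, was 667, 655, 730, 636 and 653 TPM in CCD and 5.03, 1.78, 5.93 and 4.61 TPM in OMCD (7.07, SE 0.19, adjusted p = 7.63e-30). Its channel partner Kcnq1 did not pass the test, at 290 and 239 TPM (0.28, SE 0.25, adjusted p = 0.417). Kcne1 was thus 2.32 ± 0.212 times the level of Kcnq1 in CCD and 0.0185 ± 0.00836 times in OMCD. Both proton-potassium pumps were called higher in CCD. Atp4a, the gastric form, was 202 to 501 TPM in CCD and 7.51 to 14.5 TPM in OMCD (4.74, SE 0.30, adjusted p = 1.60e-16). Atp12a, the colonic form, was 25.0, 15.6, 30.4, 58.9 and 7.92 TPM in CCD and 1.73, 0.54, 8.91 and 6.62 TPM in OMCD, where CCD mouse 5 fell inside the OMCD range (2.5, SE 0.36, adjusted p = 7.85e-07). Kcnj10, a potassium channel of the blood side, was 12.1 to 14.5 TPM in CCD and 1.51 to 5.87 TPM in OMCD (1.73).

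Among genes of principal cells, the water channel gene Aqp4 was called higher in OMCD, and the sodium channel gene Scnn1a was called higher in CCD. The principal cell list, which holds Scnn1b and Scnn1g but not Scnn1a, had 12 genes, of which 3 were called higher in OMCD and none (0) higher in CCD. By the adjusted p alone, 3 passed in each direction, where 11.8% of all genes of 10 TPM or more passed in favour of CCD and 19.3% in favour of OMCD. Aqp4, the aquaporin of the blood side, was 82.8, 51.0, 70.9, 81.2 and 58.0 TPM in CCD and 516, 728, 554 and 562 TPM in OMCD (−3.12, SE 0.23, adjusted p = 1.01e-14). Fxyd4, which modulates the sodium pump, was 4763 to 5856 TPM in CCD and 13684 to 16460 TPM in OMCD (−1.53, SE 0.42, adjusted p = 0.00583). Elf5, a transcription factor of principal cells, was 6.56 to 15.3 TPM in CCD and 43.0 to 51.9 TPM in OMCD (−2.06, SE 0.23). The groups did not overlap for any of these 3. Aqp2, the vasopressin-regulated luminal aquaporin, was 17021, 12274, 12633, 13781 and 14306 TPM in CCD and 29290, 34804, 23813 and 19191 TPM in OMCD. Every OMCD mouse was above every CCD mouse, but the difference did not pass the test that pools the spread of all 15 segment groups (−0.91, SE 0.43, adjusted p = 0.107). With only CCD and OMCD mice in the fit the adjusted p was 0.00429, and the difference stayed under the fold. Aqp3, another aquaporin of the blood side, did not pass the test, at 4008 ± 279.7 and 5140 ± 577 TPM (−0.35, adjusted p = 0.191). Avpr2, the vasopressin receptor, overlapped at 1035 ± 231 and 1272 ± 301 TPM (−0.30, adjusted p = 0.426).

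The 3 ENaC subunits were higher in CCD. Scnn1a was 489, 442, 421, 419 and 405 TPM in CCD and 154, 192, 206 and 226 TPM in OMCD (1.17, SE 0.22, adjusted p = 9.68e-05). Scnn1b, at 1332 ± 143 and 691 ± 38.6 TPM, and Scnn1g, at 1055 ± 33.2 and 620 ± 69.9 TPM, passed the adjusted p but not the fold (0.94, adjusted p = 0.000269, and 0.77, adjusted p = 0.000128). All 3 were separate between the segments. Relative to Aqp2 in the same mouse, Scnn1a was 0.0314 ± 0.00328 in CCD and 0.00779 ± 0.00306 in OMCD. Usp2, a deubiquitinase linked to ENaC, was 57.4 to 111 TPM in CCD and 20.0 to 47.6 TPM in OMCD (1.54, adjusted p = 0.00174). Hsd11b2, which shields the aldosterone receptor from glucocorticoids, was 3594 ± 160 and 2491 ± 389 TPM (0.54, adjusted p = 0.0267), short of the fold. Of 20 genes of the aldosterone and ENaC list with 10 TPM or more, 2 were called higher in CCD and 1 higher in OMCD. After median ratio rescaling these counts were 4 and 1.

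Some receptors for local and hormonal signals were called higher in CCD, and others higher in OMCD. Ptger1, a prostaglandin E receptor, was 76.0 to 112 TPM in CCD and 420, 602, 545 and 464 TPM in OMCD (−2.5, SE 0.26, adjusted p = 2.89e-10). Ptger3, another receptor for the same ligand, was 20.4, 24.7, 28.5, 22.2 and 32.1 TPM in CCD and 0.88 to 1.84 TPM in OMCD (3.59, SE 0.24, adjusted p = 3.76e-16). Ptges, which makes prostaglandin E2, was 233 to 365 TPM in CCD and 47.5 to 52.5 TPM in OMCD (2.37, adjusted p = 2.71e-06). Hpgd, which degrades prostaglandins, was also higher in CCD (31.4 against 6.15 TPM, 2.30). Ptgds, the prostaglandin D synthase, was under 2 TPM in each CCD mouse and 18.1, 47.4, 34.3 and 42.5 TPM in OMCD (−3.94, SE 0.32). Avpr1a, the V1a vasopressin receptor, was 172 to 294 TPM in CCD and 27.1 to 86.0 TPM in OMCD (2.36, adjusted p = 5.37e-10). The purine receptors P2ry14 (55.3 against 233 TPM, −2.10) and Adora1 (38.4 against 153 TPM, −1.98) were higher in OMCD. Of 14 prostanoid, endothelin and purine genes with 10 TPM or more, 3 were called higher in CCD, 4 higher in OMCD and 7 in neither direction.

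**Figure D3:**
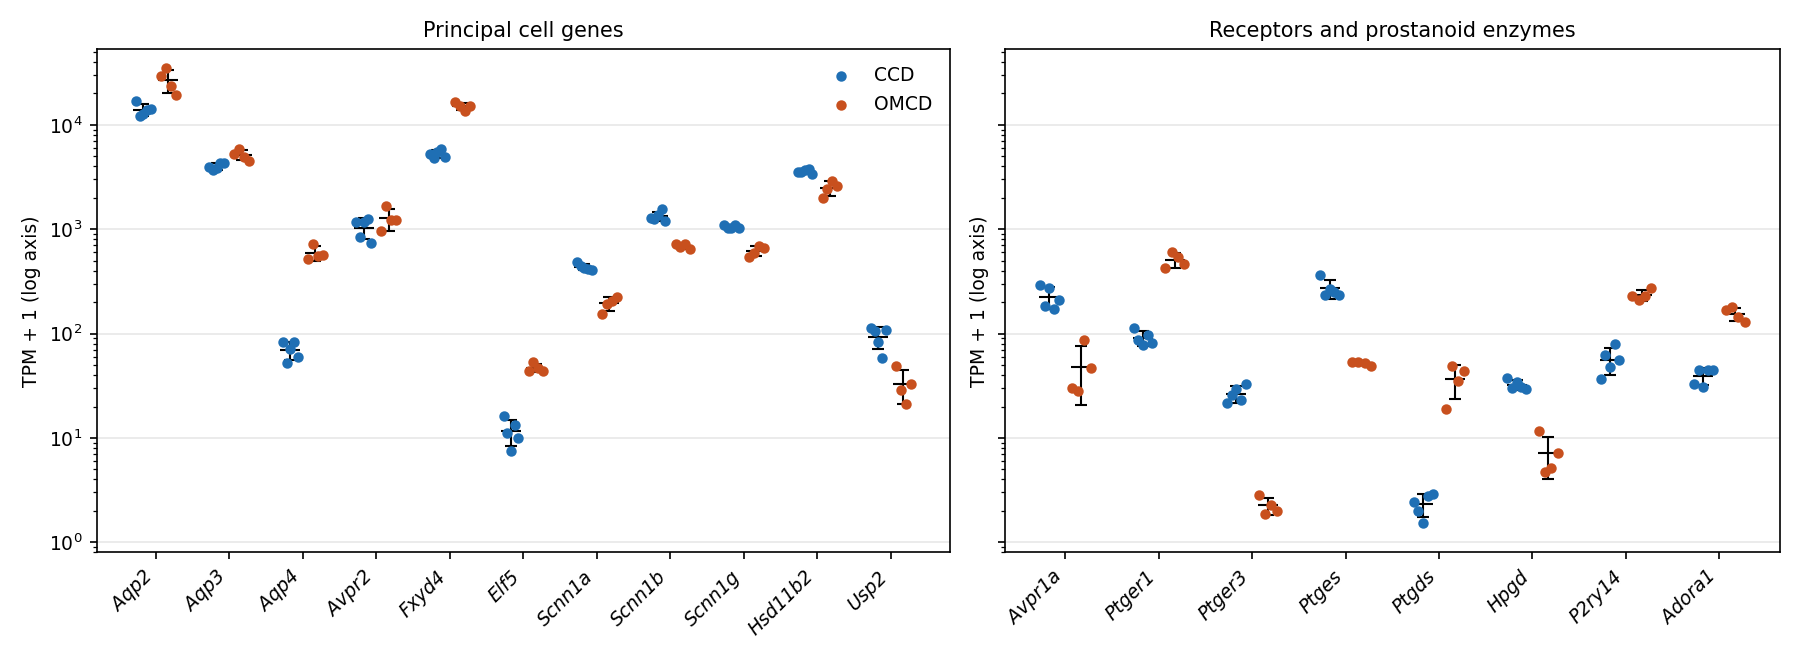
TPM + 1 on a log axis for each of 5 CCD mice (blue) and 4 OMCD mice (orange), with the mean and SD as black bars, for principal cell genes and for receptors and prostanoid enzymes. Aqp4, Fxyd4, Elf5 and Ptger1 are higher in OMCD, the 3 Scnn1 genes, Ptger3 and Ptges higher in CCD, and Avpr2 overlaps.

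Of 11 calcium transport genes, 8 had 10 TPM or more, and 5 of these were called higher in CCD. Trpv6, Slc8a1 and Atp2b1 did not pass the test (0.17, 0.11 and 0.23). The median was 2.83 over the 8 and 2.07 over all 11. S100g, a calcium-binding protein, was 1158, 584, 1470, 520 and 753 TPM in CCD and 5.86, 6.09, 21.8 and 9.54 TPM in OMCD (6.37, SE 0.36, adjusted p = 1.85e-18). Calb1, calbindin, was 419 to 530 TPM in CCD and 19.3 to 56.5 TPM in OMCD (3.66, SE 0.31). Casr, the calcium-sensing receptor, was 48.2 to 57.9 TPM in CCD and 1.57 to 3.27 TPM in OMCD (4.01, SE 0.16, adjusted p = 6.19e-24). The calcium pump Atp2b2 (32.4 against 1.85 TPM, 3.60) and the vitamin D receptor Vdr (52.5 against 11.9 TPM, 2.07) were called as well. S100g, Calb1 and Klk1, tissue kallikrein, mark the connecting tubule (CNT), which joins the CCD, and the 7 distal and connecting tubule markers summed to 1028 to 2281 TPM in CCD and 54.5 to 78.8 TPM in OMCD. In CCD, S100g stood at 7.08%, Klk1 at 3.16% and Calb1 at 33.8% of their mean in the 3 CNT mice. The part of CNT cells in the CCD values was not tested.

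Markers of other cells also differed. The 10 proximal tubule markers summed to 117, 155, 503, 595 and 173 TPM in CCD and 6.08 to 17.3 TPM in OMCD. Most of the CCD sums was Kap, an androgen-regulated kidney protein of the proximal tubule (91.4 to 439 TPM). Slc34a1, Miox and Kap were among the 4 of 10 with 10 TPM or more, and all 4 were called higher in CCD. Of 5 thick limb markers, Umod, which encodes uromodulin, was called and was 14.3 to 33.2 TPM in CCD and 0.35 to 5.64 TPM in OMCD. The others were under 10 TPM, and Slc12a1, Cldn16 and Egf did not pass the test (1.19, 0.09 and −0.02). The 8 endothelial markers summed to 162 to 260 TPM in CCD and 447 to 601 TPM in OMCD, with 5 of 6 called higher in OMCD, Plvap among them (110 against 306 TPM), whose call was lost without OMCD mouse 1 (−1.40, adjusted p = 0.0588). Dcn, a matrix gene of stromal cells, was 51.5 to 60.2 TPM in CCD and 0.36 to 3.52 TPM in OMCD, and was the only one of 10 stromal and muscle markers with 10 TPM or more. The other 9 were under 6 TPM in every mouse and had negative differences, as for Pdgfra, a growth factor receptor (−1.31, adjusted p = 0.00392). The 8 leukocyte markers summed to 148 to 377 TPM in CCD and 124 to 548 TPM in OMCD, and none (0) was called. Genes of the early response to stress summed to 1508, 8695, 3791, 4428 and 1508 TPM in CCD and 582 to 1667 TPM in OMCD, and 9 of 12, including Jun and Egr1, were called higher in CCD. The part of these cells and responses in the calls was not tested. Without OMCD mouse 1 and CCD mice 3 and 4, a choice made after seeing the data, 899 genes were called (325 higher in CCD), 844 of them among the 999. The CCD mice kept in that fit still had proximal tubule sums of 117 to 173 TPM and included mouse 2, with the highest early response sum.

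Some genes of the Notch pathway and the citric acid cycle were called higher in CCD, and the glycolytic gene Aldoc was called higher in OMCD. Of 9 Notch pathway genes with 10 TPM or more, 3 were called higher in CCD: the ligand Dll1 (66.6 against 19.1 TPM, 1.76), the target Heyl (1.17) and Nrarp, a feedback regulator. The call of Heyl was lost with a pseudocount of 0.1 (adjusted p = 0.0659) or 5 (0.91). Nrarp was 28.5 to 38.7 TPM in CCD and 1.46 to 2.46 TPM in OMCD (3.59, SE 0.28, adjusted p = 1.07e-13). By the adjusted p alone, 6 of the 9 passed in favour of CCD and 1 in favour of OMCD. Of all genes of 10 TPM or more, 11.8% and 19.3% did so. The 1 in favour of OMCD was the receptor Notch2 (14.64 against 29.85 TPM, −0.99, adjusted p = 0.000802). The receptors Notch1, Notch3 and Notch4, with means under 10 TPM, also passed the adjusted p in favour of OMCD (−1.265, −0.54 and −1.30). All 20 citric acid cycle genes had a positive difference, with a median of 0.66, and 18 passed the adjusted p in favour of CCD, but only Idh3a (1.07) and Mdh2 (1.06) reached the fold. Idh3a lost its call without OMCD mouse 1. The median was 0.86 after median ratio rescaling, with 6 calls, and 0.57 after quantile normalization, with 0 calls. Transcripts of the mitochondrial genome summed to 23526 to 25428 TPM in CCD and 17200 to 18693 TPM in OMCD. Among glycolytic genes, 9 of 15 passed the adjusted p in favour of CCD without reaching the fold. Aldoc alone was called, in the other direction, at 40.0 to 60.7 TPM in CCD and 225 to 242 TPM in OMCD (−2.29, SE 0.21, adjusted p = 8.11e-12). After median ratio rescaling, 3 glycolytic genes were called higher in CCD and 1 higher in OMCD. After quantile normalization 1 was called in each direction.

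Genes tied to salt and osmolytes were called in both directions, 3 of 12 higher in OMCD and 2 higher in CCD. Slc6a12, the betaine transporter, was 0.51, 1.71, 0.63, 0.87 and 0.65 TPM in CCD and 18.3, 67.2, 35.8 and 20.3 TPM in OMCD (−4.11, SE 0.42, adjusted p = 2.73e-10). Akr1b3, the aldose reductase that makes sorbitol, was 40.2 to 45.6 TPM in CCD and 90.5 to 151 TPM in OMCD (−1.37). Nfat5, the transcription factor of the response to tonicity, was 9.10 to 13.8 TPM in CCD and 21 to 29.6 TPM in OMCD (−1.12, adjusted p = 2.29e-07), and its call was lost under both other scalings and with a pseudocount of 5 (−0.91). The taurine transporter Slc6a6 was higher in CCD (99.8 to 156 against 42.6 to 54.7 TPM, 1.29). Slc3a2, the heavy chain of amino acid exchangers, was also called there at the edge of the fold (188 against 93.8 TPM), and its call was lost without CCD mouse 2 or 3 or OMCD mouse 2, 3 or 4 (0.96 to 0.99 in 3 of these fits). Of 15 hypoxia response genes, Adm, adrenomedullin, was called higher in CCD (90.0 against 6.08 TPM, 3.71) and Ddit4 higher in OMCD (7.57 against 23.2 TPM, −1.45), and the median of the list was −0.03. Of 22 transcription factors, Hmx2 was called higher in CCD, and Elf5 and Pax2 (3.62 against 12.6 TPM, −1.55) higher in OMCD. Under both other scalings, 2 transcription factors were called in each direction. None of 10 Hox genes was called (0). List counts and medians at 10 TPM or more describe the members that reached it, some in a single segment. Over all tested members the median had the other sign for the Notch (−0.40 over 19 genes, 0.71 at 10 TPM), potassium (−0.11 over 17, 1.005 at 10 TPM), carbonic anhydrase (−0.45 over 14, 1.001 at 10 TPM) and aldosterone lists (−0.01 over 21, 0.12 at 10 TPM).

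**Figure D4:**
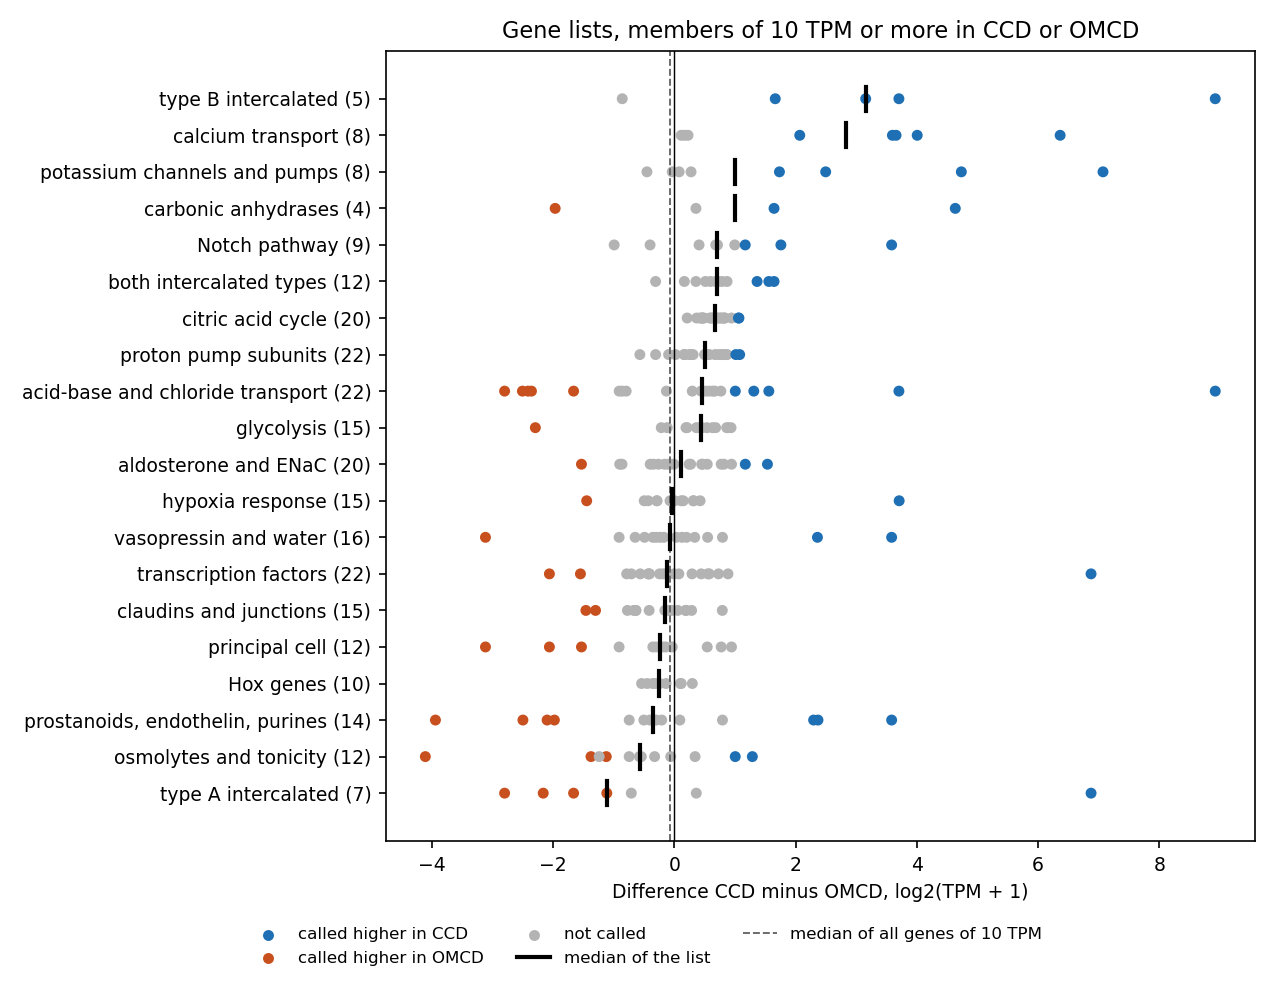
Difference CCD minus OMCD on the log2(TPM + 1) scale for the members of 20 gene lists with a mean of 10 TPM or more in either segment; the number of members stands in brackets. Each point is a gene, blue if called higher in CCD, orange if called higher in OMCD and grey if not called, black bars are list medians and the dashed line is the median of all genes of 10 TPM or more, −0.08. The median is highest for type B genes (3.16) and lowest for the type A list (−1.11).

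Several further genes had large differences in favour of CCD. Tldc2, a gene of a family linked to oxidative stress, was 510, 568, 495, 466 and 562 TPM in CCD and 0, 11.4, 5.20 and 1.47 TPM in OMCD (7.30, SE 0.35). Tmem52b, a membrane protein gene, was 605 ± 89.2 and 4.62 ± 1.90 TPM (6.83, SE 0.23). Klk1 was 114, 121, 256, 71.4 and 104 TPM in CCD and under 1 TPM in each OMCD mouse (6.51, SE 0.33). Hhatl (129 against 0.76 TPM, 6.33), the kinase gene Sgk2 (46.1 against 0.43 TPM, 5.05) and Fxyd2, another modulator of the sodium pump (461 to 761 against 12.2 to 22.5 TPM, 4.92), were in the same set, as was Kap (5.10). Insrr overlaps Pear1 in the annotation, which was 15.1 ± 2.63 TPM in CCD and 46.9 ± 8.29 TPM in OMCD. The most abundant called genes included Slc25a5, a mitochondrial ATP and ADP carrier (3633 against 1737 TPM), Actb, cytoplasmic actin (2811 against 1167 TPM), S100a1 (2445 against 1011 TPM) and Ctsd, cathepsin D (2157 against 964 TPM). The call of Slc25a5 was lost with quantile normalization (0.91).

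In favour of OMCD, 7 called genes differed by 5 log2 units or more, among them the predicted gene Gm23419 (−10.15). With non-coding genes and genes of provisional name passed over, Scel came first, which encodes sciellin, a protein of the cornified envelope. It was 2.30, 1.58, 1.19, 2.55 and 1.82 TPM in CCD and 77.0, 86.9, 70.4 and 85.3 TPM in OMCD (−4.84, SE 0.19, adjusted p = 2.16e-24). Emilin2, a matrix glycoprotein, was 0.79 ± 0.24 and 39.3 ± 15.1 TPM (−4.45, SE 0.28). Folr1, the folate receptor, was 4.38 to 7.50 TPM in CCD and 114 to 147 TPM in OMCD (−4.20, SE 0.30). Actn3, a muscle-type actinin (2.69 against 56.1 TPM, −3.86), Clic3, an intracellular chloride channel (2.76 against 54.6 TPM, −3.85), Tmem238l (0.28 against 16.7 TPM, −3.68) and Bcat1, an enzyme of branched-chain amino acids (0.87 against 27.3 TPM, −3.66), followed. Bcat1 varied widely in OMCD, at 35.0, 55.1, 8.44 and 10.5 TPM in mice 1 to 4. Ranbp3l (12.6 against 172 TPM, −3.65), Cck, cholecystokinin (−3.57), and Map6, which stabilises microtubules (0.28 against 14.8 TPM, −3.54), closed the set. Cck was listed at 0 in CCD mice 1, 2 and 4 and was 19.7, 41.0, 3.15 and 9.71 TPM in OMCD, so it varied widely there. Among abundant genes, Igfbp7 (1211 against 4149 TPM, −1.79), the secreted protein gene Wfdc2 (699 against 1601 TPM, −1.18) and Muc20, a mucin (164 against 1357 TPM, −3.07), joined Fxyd4 and Slc4a1. The call of Wfdc2 was lost with median ratio rescaling (−0.99) or a pseudocount of 0.1 (adjusted p = 0.0639).

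Means in the neighbours of both segments, which no contrast here used, were set beside those of the called genes. Of the 360 genes higher in CCD, the mean of the 3 CNT mice was on the CCD side of the midpoint for 312 (86.7%), and that of the 3 mice of inner medullary duct (IMCD) was on the OMCD side for 338 (93.9%). Of the 639 genes higher in OMCD, CNT was on the CCD side for 593 (92.8%), but IMCD was on the OMCD side for only 277 (43.3%). The 639 include non-coding genes, and the corresponding shares over all genes of 10 TPM or more were not taken. Aqp6, Slc4a1 and Scel were low in IMCD, at 0.29, 0.27 and 0.14 TPM, beside 666, 1582 and 79.9 TPM in OMCD. Aqp4 was 586 ± 41.5 TPM in IMCD beside 590 ± 93.9 TPM in OMCD. Folr1 (635 TPM), Slc6a12 (67.5 TPM), Bcat1 (403 TPM) and Muc20 (3062 TPM) were at a higher mean in IMCD than in OMCD. Scnn1a, at 383 TPM in CNT, 435 TPM in CCD and 194 TPM in OMCD, was 0.53 TPM in IMCD.

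**Figure D5:**
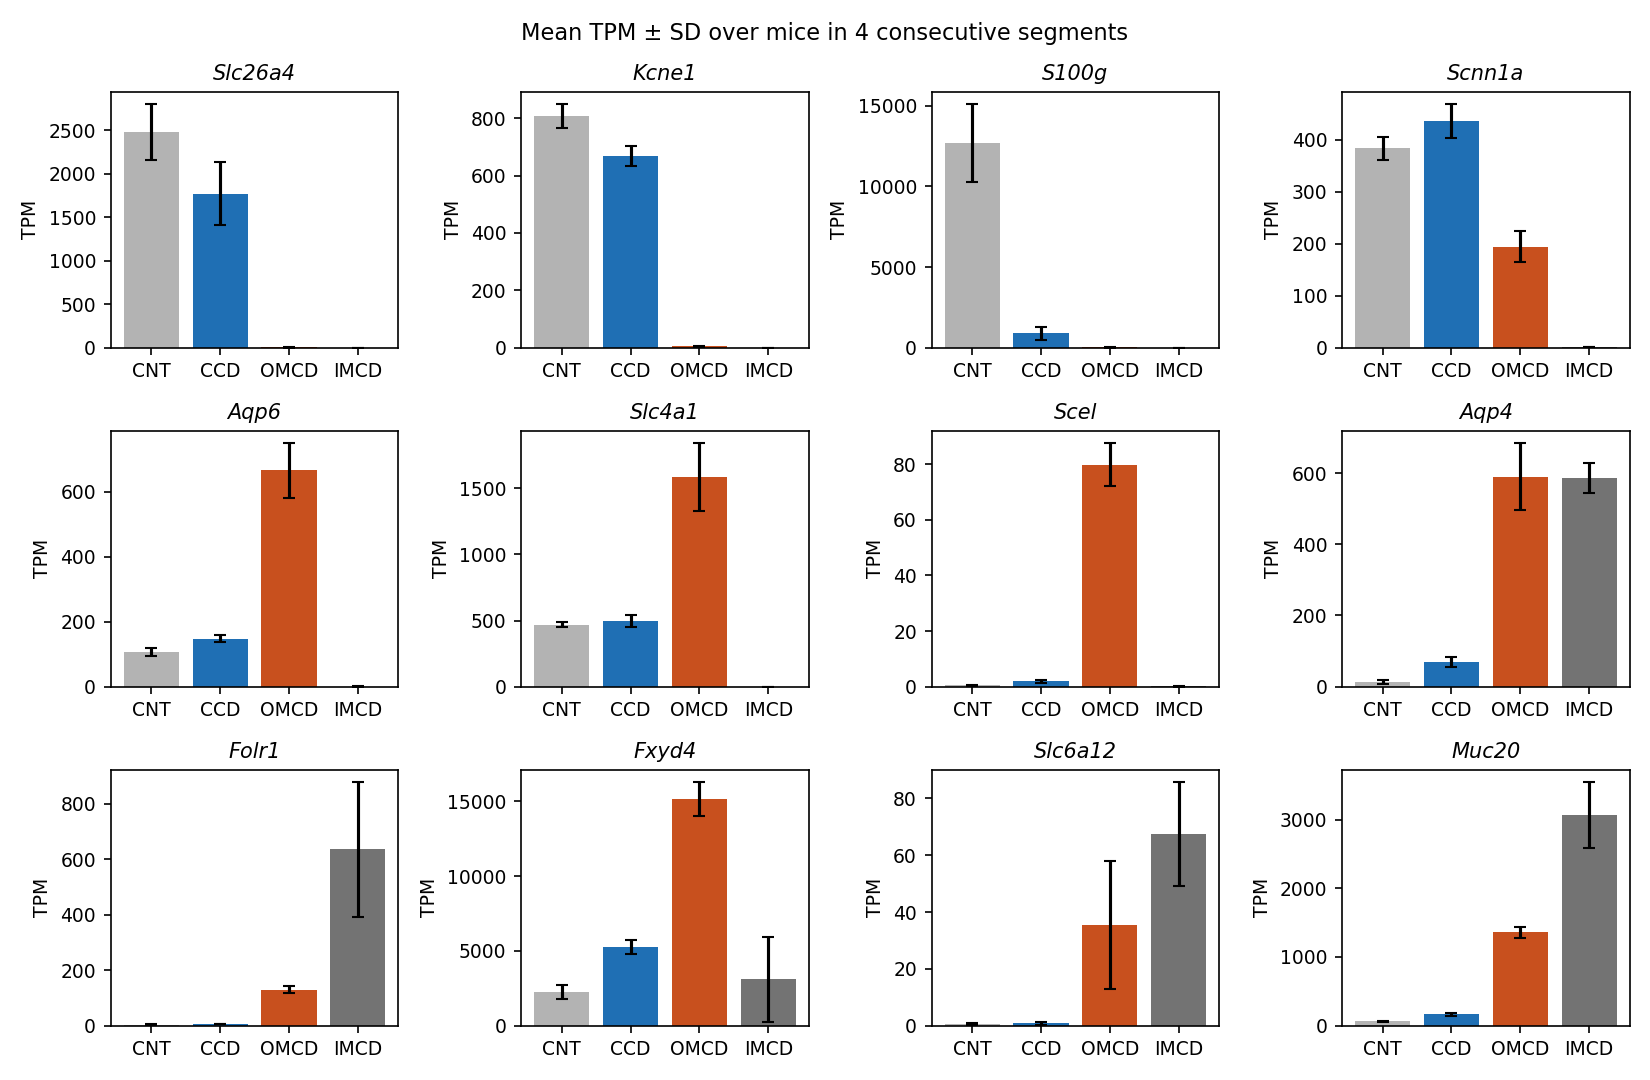
Mean TPM of 12 genes in CNT (3 mice), CCD (5 mice), OMCD (4 mice) and IMCD (3 mice), with bars from 0 and SD over mice as error bars, each panel on its own linear axis. Slc26a4 and Kcne1 drop between CCD and OMCD, Aqp6, Slc4a1 and Scel peak in OMCD, and Folr1, Slc6a12 and Muc20 are highest in IMCD.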

How the data were processed

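Per the labels' protocols, RNA of microdissected pieces was made into cDNA with an ultra-low input kit and sequenced. The authors deposited TPM for 54532 mouse genes. STAR 2.5.4a, RSEM 1.3.0, Cell Ranger 3.0.2 and Seurat are named in the submitters' processing notes, without roles; the genome build and strand setting are not given in the sources used here. TPM keep no read depth, so depth and counting error are unknown. Mouse numbers were read from column names, and the labels do not say whether pieces of 1 number came from 1 kidney. Genes with at least 1 TPM in at least 3 of 53 mice were kept (33793). Pieces were averaged as log2(TPM + 1), which understates the change of low genes, and limma 3.58.1 in R 4.3.3 (trend) was fitted over all 15 groups, with Benjamini-Hochberg adjustment over all genes tested; each adjusted p in the text is from this fit, two-sided, unless another is named. On simulated data 96.5% of changes of 2 log2 units and 86% of changes of 1.5 were recovered, with 5 other genes called. There the CCD and OMCD means were set equal before changes were added, and no TPM minimum was applied. Noise was normal with 1 spread per gene for all groups. The simulation thus leaves out the broad low-level signal of OMCD and gives no error rate for the real calls. Exact permutation tests used scipy 1.17.1. Biotypes and overlaps came from GENCODE M21 (99.93% of gene identifiers found), and promoters from RefSeq.

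The members and gene lists were chosen with earlier results of these data known. Beside list members, the text names the 12 genes of largest difference in each direction, among called protein-coding genes whose mice did not overlap, and the 5 of highest TPM. Predicted, mitochondrial, ribosomal, pseudogene and receptor names were passed over, and some genes this rule or the lists name are not reported here. Alternatives were other pseudocounts, filters, scalings, treatments of pieces, a replicate block, TPM minimums and leaving out each mouse. The series' 3 single-cell samples were not used here.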

Additional observations from a re-analysis of the deposited data

Results flagged for a closer look

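A mouse that stood apart from the rest of its segment was looked for in 224 groups of values, and 14 (6.25%) were found, where chance gives about 1 in 20. OMCD mouse 2 accounted for 4 of them, all in named genes. It was the lowest for Rhbg (478 TPM) and Hepacam2 (98.6 TPM), both genes of intercalated cells. It was the highest for Clic3 (98.9 TPM, the others 35.4 to 45.3) and Pax2 (17.9 TPM). Without this mouse each of the called genes among them kept its call. In OMCD mouse 1, which had the most receptor genes at 1 TPM or more, transcripts of the mitochondrial genome summed to 17200 TPM, the others 18503 to 18693.

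In CCD, mouse 4 was high for Igfbp7 (1475 TPM) and Slc4a11 (2.88 TPM) and low for Mdh2 (972 TPM). Mouse 5 was high for Sgk2 (56.9 TPM), Cck (0.175 TPM) and Atp6v1a (1147 TPM). Mouse 3 was high for Klk1 (256 TPM, the others 71.4 to 121), mouse 2 for Atp6v1b1 (1226 TPM) and mouse 1 for Ptges (365 TPM).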

How the results depend on the processing

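The number of calls and the number in each direction kept within 1.5 times of 999, 360 (higher in CCD) and 639 (higher in OMCD) except under 3 settings, although median ratio rescaling turned the larger side (478 and 466). Without a TPM minimum there were 4095 (586 and 3509), with a minimum of 50 TPM 345 (175 and 170), and with the fold of 1 built into the test (treat) 293 (135 and 158). The last is smaller by its construction. The median difference over all 33793 genes moved from −0.30 to −0.22 after median ratio rescaling and −0.05 after quantile normalization, and it was −0.75 with a pseudocount of 0.1 and −0.10 with a pseudocount of 5. Leaving out 1 mouse gave 948 to 1015 calls, 339 to 375 higher in CCD and 605 to 640 higher in OMCD. The mouse numbers were not used to pair the samples. Deviations of same-numbered CCD and OMCD mice from their segment means correlated at −0.116, −0.103, 0.0531 and −0.0238 across genes. Those of mice with different numbers correlated at −0.0907 to 0.142. With so few mice behind each segment mean, these values cannot decide whether a number stands for 1 animal in both segments. A replicate block on mice 1 to 4 gave 961 calls (354 and 607), against 998 for the same mice without it. Of 92 called named genes, 78 kept their call under each of 15 alternatives, 14 lost it under at least 1, and none (0) reversed. The 15 leave out treat, the minimum of 50 TPM and the fit without OMCD mouse 1 and CCD mice 3 and 4, among others. Some of the 92 were named for a large difference or high TPM in these data, so the count does not extend to other called genes. Calls were lost with a pseudocount of 0.1 by Wfdc2, Adgrf5, Slc9a2, Cldn19 and Heyl, and with a pseudocount of 5 by Slc9a2, Cldn15, Heyl, Nfat5 and Slc3a2. Median ratio rescaling ended those of Wfdc2, Adgrf5 and Nfat5, and quantile normalization those of Slc25a5, Atp6v1a, Atp6ap2, Cldn19, Nfat5, Idh3a and Mdh2. With the replicate block Slc9a2 (0.96) and Cldn19 (−1.14) were not called, and Cldn19 was also lost with only CCD and OMCD mice in the fit and without any of 5 single mice. Plvap, Adgrf5, Slc9a2, Atp6v1a, Atp6ap2, Slc3a2 and Idh3a lost theirs without at least 1 single mouse. Scnn1b gained a call under median ratio rescaling. Differences of genes near 1 TPM depend most on the pseudocount and cannot be weighted by depth, which TPM do not keep.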

Other observations

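Several genes of the cell cycle were higher in CCD, a pattern noticed after the values were seen and described with a list of 26 common cell cycle genes made afterwards. In that list 14 genes were called higher in CCD and none (0) higher in OMCD. All of the 14 but Tyms reached 10 TPM in CCD only, so the count describes these genes and supports nothing further. Cdk1, the kinase that starts mitosis, was 22.1, 46.4, 26.2, 42.2 and 14.2 TPM in CCD mice 1 to 5 and 2.09, 1.14, 3.81 and 6.93 TPM in OMCD mice 1 to 4 (2.90, SE 0.40, adjusted p = 4.98e-07, limma). Ube2c, a ubiquitin-conjugating enzyme of mitosis, was 12 to 35.1 TPM in CCD and 0.35 to 4.34 TPM in OMCD (3.18). It overlaps Tnnc2 in the annotation. Cdc20, which activates the anaphase complex, was 14.0 to 36.4 TPM and 0.85 to 5.89 TPM (2.44), and Rrm2, which supplies deoxynucleotides, 37.5 to 58.7 TPM and 5.11 to 12.3 TPM (2.29). CCD mice 2 and 4 were the highest for Cdk1, Ube2c, Cdc20 and Birc5. These mice also had the highest sums of early response genes (8695 and 4428 TPM, the other CCD mice 1508 to 3791), and the part of that response in this pattern was not tested. In the neighbouring segments Cdk1 was 8.29 TPM in CNT and 3.60 TPM in IMCD, whereas Tyms, which makes thymidylate, was 89.7 TPM in CNT beside 85.9 TPM in CCD. Among the replication genes, Mcm3 was called (1.64, adjusted p = 4.73e-08) and Mcm6 passed the adjusted p (0.0491) but not the fold. Mcm2, Mcm4, Mcm5 and Mcm7 did not pass the test (0.50, 0.07, 1.01 and 0.47).

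Non-coding and predicted genes made up part of the OMCD side. Of the 639 genes higher there, 41 were listed at 0 in each CCD mouse, and 1 of these was protein-coding. Gm23419, annotated as a microRNA gene, was listed at 0 in all 5 CCD mice and at 1165, 887, 1245 and 1312 TPM in OMCD mice 1 to 4. Gm10800 was 20.1 to 50.6 TPM in CCD and 2255, 1116, 1191 and 689 TPM in OMCD, so OMCD mouse 1, with the most receptor genes, had the highest level. The secreted signals Wnt7b (25.9 against 96.8 TPM, −1.86) and Wnt9b (17.9 against 75.9 TPM), singled out after their values were seen, were also higher in OMCD.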
